A study of Mus musculus with 8 samples.

Results

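Fatty acid elongases and desaturases were examined in the liver of male mice of 2 strains, NZO/HiBomDife (NZO) and C57BL/6 (B6). The genes considered were Scd2, Elovl1, Elovl2, Elovl3, Elovl5, Fads1, Fads2, Fads3 and Fads6, taken by the gene name printed in the array files, and these 9 of the 34836 names on the array were represented by 13 of its 55681 probes. Liver RNA of 4 NZO and 4 B6 samples was hybridised to 1-colour Agilent arrays, 1 array per sample. All mice were 6 weeks old and had been kept on a high-fat diet (45% fat), so that neither strain had a group on another diet. NZO is an inbred model of obesity and diabetes and B6 is its lean counterpart in the study, and the 2 strains differ throughout the genome. The labels number the samples within a strain but do not state that each came from a separate animal, and p-values measure the spread between these samples.

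Dietary and newly made fatty acids are remodelled at the endoplasmic reticulum of the liver cell. Elongases of the Elovl family perform the first, rate-limiting step of adding a unit of carbon to the acyl chain, and the other steps of the cycle are shared between all of them. Desaturases insert double bonds: stearoyl-CoA desaturases (Scd) make monounsaturated fatty acids, whereas the front-end desaturases Fads1 and Fads2 alternate with Elovl5 and Elovl2 in the synthesis of arachidonic acid and docosahexaenoic acid from essential fatty acids.

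In NZO livers, Elovl1 and Elovl5 were higher than in B6 livers, by 1.76-fold and 2.17-fold, respectively. Scd2 was 1.62-fold and Fads6 1.32-fold higher in B6, with changes short of the limit on the fold. Their adjusted p-values, under the limit for Scd2 and for 1 of the 2 Fads6 probes, rose over it when 6 of the 8 samples were left out in turn (Scd2) or 4 of the 8 (the brighter Fads6 probe). Elovl2, Elovl3, Fads1, Fads2 and Fads3 did not pass the test. The levels below are log2 signals minus the 75th percentile of the same array. They compare samples for the same probe, and levels of different probes are not comparable. All 13 probes were detected above background in each of the 8 samples, and all were tested. A difference was called when the Benjamini-Hochberg adjusted p of limma over 27639 probes was at most 0.05 and the log2 fold change was at least 0.7 in either direction.

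NZO sample 007 and B6 sample 010 stood apart at skeletal muscle markers. The summed signal of the 3 of 4 muscle markers tested (Acta1, Myh4 and Tnnt3), in multiples of the 75th percentile of the array, was 16.7 in NZO sample 007 and 0.121 to 0.287 in the other NZO samples. It was 5.44 in B6 sample 010 and 0.382 to 1.35 in the other B6 samples. Ckm was not well above background on all arrays of either strain. Without these 2 samples, an alternative chosen after seeing the data, the calls were again 3 member probes higher and 0 lower, with log2 fold changes of 0.73 and 0.76 for the Elovl1 probes, 1.35 for Elovl5, -0.60 for Scd2 (limma adjusted p = 0.157) and -0.42 for the brighter Fads6 probe (0.0699).

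Of the 13 probes, 3 were called higher in NZO and 0 lower. Among all probes tested, 4.33% were called higher and 5.28% lower. At an unadjusted p of 0.05 and whatever the fold, 7 of the 13 probes passed, of which 5 were higher and 2 lower in NZO, beside 13.7% and 14.1% of all probes tested. With the adjusted p alone, 3 probes were higher and 2 lower, beside 6.78% and 7.44% of all probes. At the thresholds of the study's methods (the same fold without adjustment) the counts were again 3 and 0, beside 5.16% and 7.08%. The strains did not overlap at 3 probes higher and 1 lower in NZO, whereas this held for 11.3% and 10.7% of all probes. The median log2 fold change was 0.31 over the 13 probes and 0.01 over all probes tested.

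**Figure D1:**
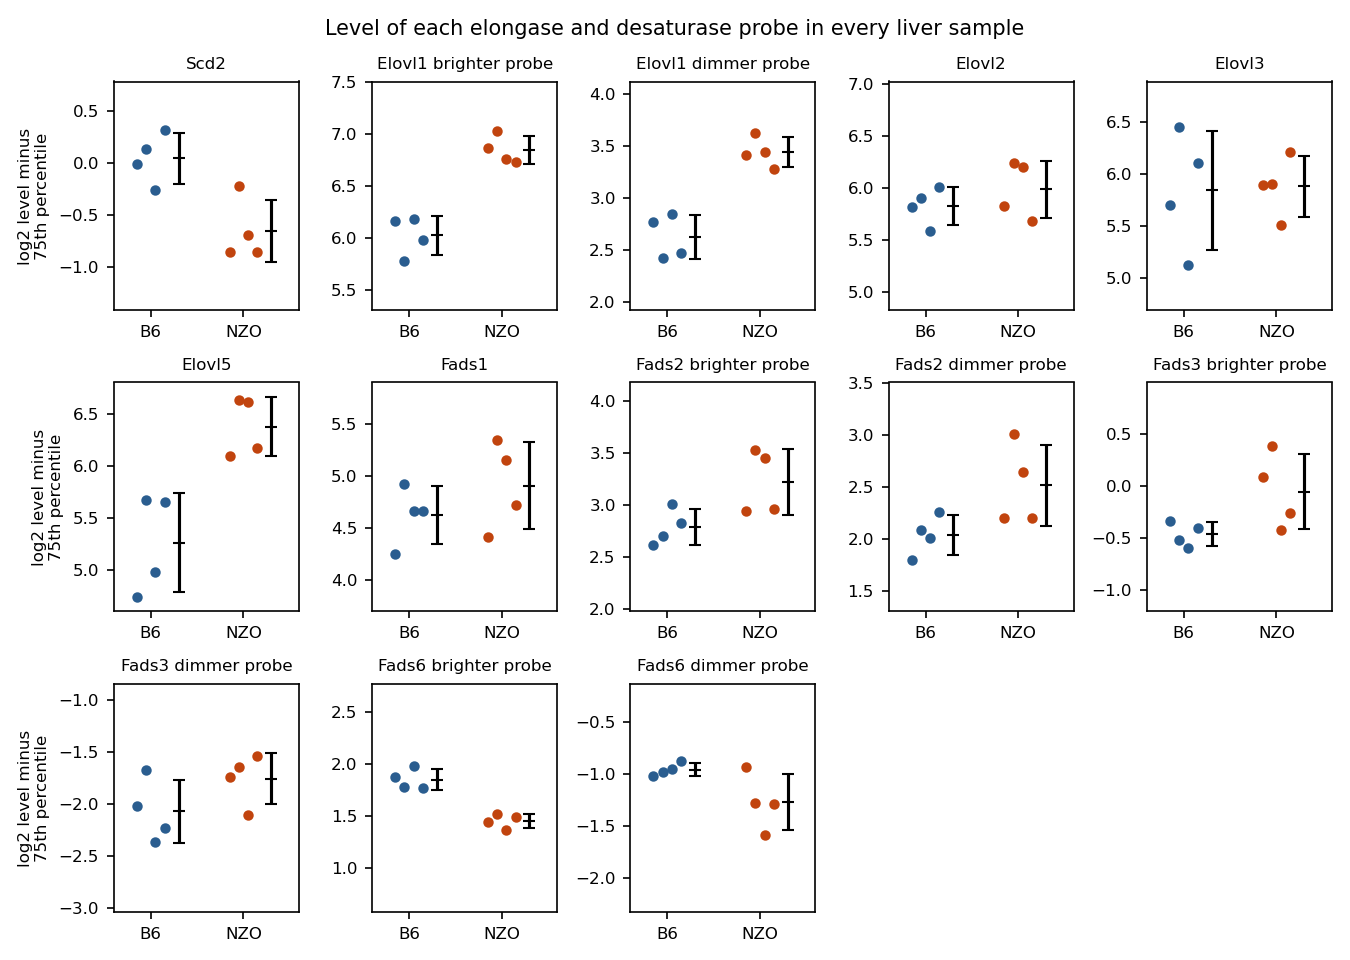
Log2 level minus the 75th percentile of the array (y axis) for each of the 13 probes in the 4 B6 (blue) and 4 NZO samples (orange), with the mean and SD of each strain in black. Each panel spans 2.2 log2 units. Both Elovl1 probes and the Elovl5 probe show NZO samples above all B6 samples, and the brighter Fads6 probe shows them below.

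Because the called genes were Elovl5 and Elovl1, the 250 bases before their starts are shown, from the reference sequence (RefSeq, GRCm38.p6). Sequence differences of NZO in these stretches or within the probes were not analysed here. The Elovl5 sequence is chr9:77917115-77917364 and the Elovl1 sequence is chr4:118427843-118428092, both on the plus strand, and capitals mark CCAAT or its reverse complement ATTGG, the letters of the box bound by NF-Y.
Elovl5: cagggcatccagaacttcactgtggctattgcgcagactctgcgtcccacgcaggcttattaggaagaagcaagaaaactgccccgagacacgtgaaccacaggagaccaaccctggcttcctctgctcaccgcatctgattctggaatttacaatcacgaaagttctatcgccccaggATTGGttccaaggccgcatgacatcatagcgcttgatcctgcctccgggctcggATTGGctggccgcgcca
Elovl1: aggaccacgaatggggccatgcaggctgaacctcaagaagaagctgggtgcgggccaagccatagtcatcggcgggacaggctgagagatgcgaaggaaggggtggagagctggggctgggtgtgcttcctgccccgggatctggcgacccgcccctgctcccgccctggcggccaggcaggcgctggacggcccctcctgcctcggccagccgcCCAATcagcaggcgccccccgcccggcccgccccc
Elovl5 carries the motif 2 times and Elovl1 1 time in this window. On either strand it occurred in 3 of the 8 promoter entries of the members (Elovl1, Elovl5 and Fads3) and in 33.8% of all 32851 promoters of the same length. The E-box CACGTG, the same on both strands, was in the Elovl5 sequence and in 6.02% of all promoters. AGGTCA, a nuclear receptor half-site, was found on either strand in an entry of Fads6, in the other entry of Elovl1, not printed here, and in 14.0% of all promoters, and TCACNCCAC, a sterol regulatory element, in no member's entry and in 1.05% of all. Entries were held for 6 members, and those of Fads1, Elovl3 and Scd2 were not among them.

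Elovl1 elongates saturated and monounsaturated very long chain fatty acids, which enter sphingolipids. Its brighter probe (chr4:118105163-118105222 of mm9, plus strand) gave levels of 6.86, 7.03, 6.76 and 6.72 in NZO samples 007, 003, 009 and 011. In B6 samples 011, 010, 015 and 009 the levels were 6.16, 5.78, 6.18 and 5.98. All NZO samples therefore lay above all B6 samples. The mean level was 6.84 ± 0.14 in NZO and 6.03 ± 0.19 in B6 (SD, n = 4), and the log2 fold change was 0.82 ± 0.13 (SE, limma adjusted p = 0.0032). The dimmer Elovl1 probe, whose start lies 422 bases away, gave the same picture. Its levels were 3.41, 3.62, 3.44 and 3.28 in NZO and 2.76, 2.42, 2.84 and 2.47 in B6, in the same order of samples. Its log2 fold change was 0.81 ± 0.13 (SE, limma adjusted p = 0.0045). The 2 probes differed in their strain difference by 0.0044 log2 units (SE 0.05, two-sided exact permutation p = 0.914).

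Elovl5 elongates polyunsaturated fatty acids of intermediate chain length. Its probe (chr9:77832205-77832264 of mm9, plus strand) gave levels of 6.09, 6.64, 6.61 and 6.17 in NZO samples 007, 003, 009 and 011 and of 4.74, 5.68, 4.99 and 5.65 in B6 samples 011, 010, 015 and 009. The lowest NZO sample lay above the highest B6 sample, while the spread within B6 was the wider. The means were 6.38 ± 0.29 and 5.26 ± 0.47 (SD, n = 4). The log2 fold change was 1.11 ± 0.25 (SE, limma adjusted p = 0.0192), with a 95% confidence interval of 0.54 to 1.68. The call was lost without B6 sample 015 (1.02, adjusted p = 0.055), NZO sample 003 (1.03, 0.0541) or NZO sample 009 (1.04, 0.052).

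Elovl2 acts after Elovl5 on longer polyunsaturated chains and is needed for docosahexaenoic acid. Its probe (chr13:41277884-41277943 of mm9, minus strand) read 5.82, 6.24, 6.20 and 5.68 in NZO samples 007, 003, 009 and 011. In B6 samples 011, 010, 015 and 009 it read 5.81, 5.91, 5.58 and 6.01. The strains overlapped, with a log2 fold change of 0.16 (95% confidence interval, -0.21 to 0.53; limma adjusted p = 0.567). The 2 elongases of the polyunsaturated pathway were also compared directly. The level of Elovl2 minus that of Elovl5 was -0.39 ± 0.09 in NZO and 0.56 ± 0.37 in B6 (SD, n = 4), with no overlap. The strain difference of Elovl2 was 0.96 log2 units below that of Elovl5 (SE 0.19, two-sided exact permutation p = 0.0286, the smallest that 4 against 4 samples allow). After adjustment over the 6 pairs of related members the p was 0.0857, past the limit.

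Elovl3 makes saturated and monounsaturated very long chains and is known in mouse liver for a daily rhythm and for higher expression in males. Its probe (chr19:46209762-46209821 of mm9, plus strand) read 5.90, 5.90, 5.51 and 6.21 in NZO samples 007, 003, 009 and 011 and 5.70, 6.45, 5.12 and 6.10 in B6 samples 011, 010, 015 and 009. The B6 samples spanned the wider range and contained the NZO samples. The log2 fold change was 0.03 (95% confidence interval, -0.62 to 0.69; limma adjusted p = 0.953), and its sign turned with the deposited table (-0.22), normexp background correction (-0.05) and quantile normalisation (-0.07). Elovl1 minus Elovl3 differed between strains by 0.78 (SE 0.41, two-sided exact permutation p = 0.114, 0.171 adjusted over the 6 pairs).

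The front-end desaturases Fads1 and Fads2 and their relative Fads3 lie next to each other on chromosome 19. Fads1 completes arachidonic and eicosapentaenoic acid. Its probe (chr19:10270530-10270589 of mm9, plus strand) read 4.41, 5.34, 5.15 and 4.73 in NZO samples 007, 003, 009 and 011 and 4.26, 4.93, 4.67 and 4.66 in B6 samples 011, 010, 015 and 009. NZO samples 003 and 009 were above all B6 samples and samples 007 and 011 within their range. The log2 fold change was 0.28 (95% confidence interval, -0.24 to 0.80; limma adjusted p = 0.472).

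Fads2 catalyses the first and rate-limiting desaturation of linoleic and alpha-linolenic acid. The array holds 2 probes for it, which start 25469 bases apart on mm9. The brighter one (chr19:10137760-10137819, minus strand) read 2.94, 3.53, 3.46 and 2.96 in NZO samples 007, 003, 009 and 011 and 2.62, 2.70, 3.01 and 2.83 in B6 samples 011, 010, 015 and 009. NZO samples 003 and 009 were above all B6 samples and the other two NZO samples were within the B6 range. Its log2 fold change was 0.43 (95% confidence interval, 0.04 to 0.83; limma adjusted p = 0.145, unadjusted 0.0355).
The dimmer Fads2 probe (chr19:10163229-10163288, minus strand) is printed because its sequence shows which stretch of the gene it reads. Frame 2 of it has no stop in 19 codons, and the capitals mark a histidine codon, 3 further codons and a second histidine codon, the form of the histidine boxes that hold the iron of these enzymes. Of the 8 desaturase probes, 1 held such a stretch.
Fads2 dimmer probe: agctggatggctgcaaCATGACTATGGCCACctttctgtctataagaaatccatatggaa
This probe read 2.20, 3.01, 2.65 and 2.20 in NZO and 1.80, 2.09, 2.01 and 2.27 in B6, in the same order of samples. Its log2 fold change was 0.48 (limma adjusted p = 0.168, unadjusted 0.0447), and the 2 Fads2 probes differed in their strain difference by -0.05 (SE 0.12, two-sided exact permutation p = 0.686). Neither was called.

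Fads3 acts on sphingoid bases. Its brighter probe (chr19:10132641-10132700 of mm9, plus strand) read 0.08, 0.39, -0.43 and -0.26 in NZO samples 007, 003, 009 and 011 and -0.34, -0.52, -0.60 and -0.41 in B6 samples 011, 010, 015 and 009. The highest 3 of the samples were from NZO, but NZO sample 009 lay within the B6 range. The log2 fold changes of the brighter and the dimmer probe (chr19:10134543-10134602, plus strand) were 0.41 (limma adjusted p = 0.182) and 0.31 (0.314). The 3 neighbours were compared in pairs. The strain difference of Fads1 minus that of Fads2 was -0.15 (SE 0.16, two-sided exact permutation p = 0.429) and that of Fads2 minus that of Fads3 was 0.02 (SE 0.26, two-sided exact permutation p = 1.0). The difference of Elovl5 from Fads2 was 0.68 (SE 0.25, two-sided exact permutation p = 0.0286, 0.0857 after adjustment).

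Fads6 is a little-studied member of the desaturase family. Its brighter probe (chr11:115144681-115144740 of mm9, minus strand) read 1.44, 1.52, 1.37 and 1.49 in NZO samples 007, 003, 009 and 011 and 1.88, 1.78, 1.98 and 1.77 in B6 samples 011, 010, 015 and 009. All NZO samples lay below all B6 samples, and these were the tightest values of the 13 probes in NZO, with an SD of 0.07. The log2 fold change was -0.40 ± 0.09 (SE, limma adjusted p = 0.0232), which is under the limit on the fold. The adjusted p rose over the limit without B6 samples 011 (0.0638) or 015 (0.0631) or NZO samples 009 (0.0604) or 011 (0.0528). The dimmer probe (chr11:115145620-115145679, minus strand) gave -0.31 (limma adjusted p = 0.19), with NZO sample 007 at -0.93 among the B6 samples, which lay between -1.02 and -0.87.

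Scd2 is a stearoyl-CoA desaturase that is abundant in brain and in young animals, whereas Scd1 is the main form of adult liver. The Scd2 probe (chr19:44381024-44381083 of mm9, plus strand) read -0.86, -0.22, -0.69 and -0.86 in NZO samples 007, 003, 009 and 011 and -0.01, 0.13, -0.27 and 0.32 in B6 samples 011, 010, 015 and 009. NZO sample 003 lay just above B6 sample 015, and the other NZO samples lay below all B6 samples. The means were -0.66 ± 0.30 and 0.04 ± 0.25 (SD, n = 4). The log2 fold change was -0.70 ± 0.18 (SE, limma adjusted p = 0.0376) and, unrounded, -0.69996, so that it missed the limit of 0.7. Without NZO sample 003 it was -0.84 (adjusted p = 0.0126) and without B6 sample 015 -0.80 (0.0326), and both were calls. Without any of the other 6 samples the adjusted p was over the limit, up to 0.101 without B6 sample 009. It was also over the limit with scan day as a term (0.057), slide as a random block (0.0581) and the methods' t-test (0.0896). The same held for limma without the filter on dim probes (0.102), with the sample number as a block (0.101) and within scan day 1 (0.303). It was under the limit with, among others, quantile normalisation (0.0413) and the deposited table (0.0139). With normexp background correction the log2 fold change was -0.44. Scd1 read 5.07, 6.38, 6.01 and 6.04 in NZO and 5.37, 6.17, 5.91 and 6.47 in B6, with a log2 fold change of -0.11 (limma adjusted p = 0.863). Scd2 minus Scd1 differed by -0.59 (SE 0.28, two-sided exact permutation p = 0.114, 0.171 adjusted over the 6 pairs).

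**Figure D2:**
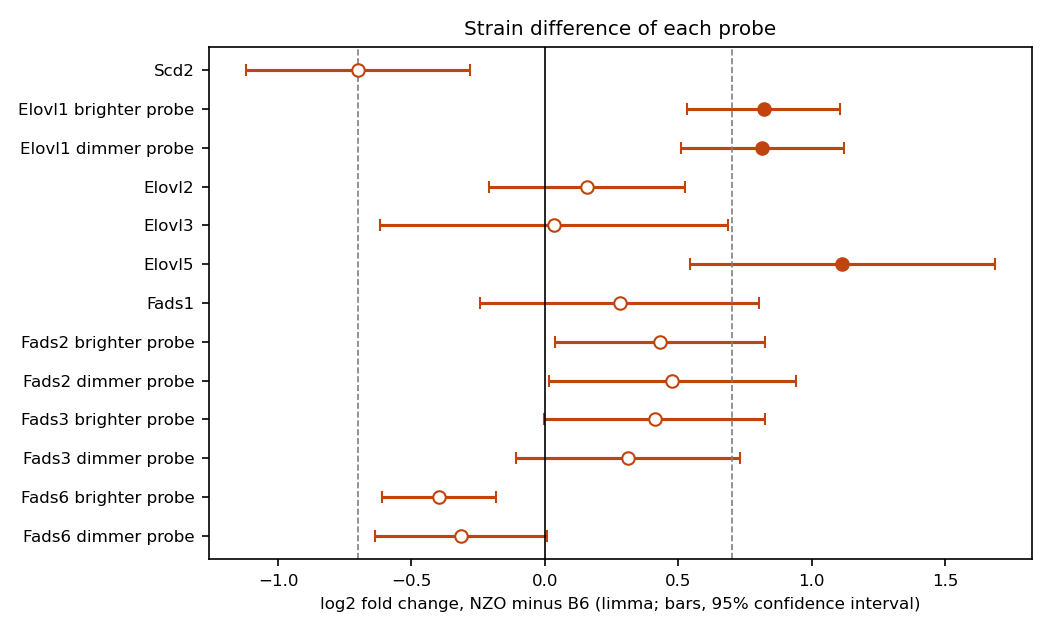
Log2 fold change of each probe, NZO minus B6, with its 95% confidence interval from limma; filled points passed the adjusted p and the fold limit (dashed lines at 0.7 in either direction). Elovl5 at 1.11 and the 2 Elovl1 probes at 0.82 and 0.81 are filled, and Scd2 lies on the dashed line.

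Arrays shared slides and scan days. Day 1 held NZO samples 003, 009 and 011 and B6 samples 010 and 015, and day 2 held the other three. On day 1 the log2 fold change was 0.86 for the brighter Elovl1 probe, 1.14 for Elovl5, -0.52 for Scd2 and -0.42 for the brighter Fads6 probe. On day 2 the same 4 probes gave 0.79, 0.90, -1.01 and -0.38, with a lone NZO sample that was assumed to vary like the others. No member was called within either day. On day 1 the limma adjusted p was 0.0693 for the brighter Elovl1 probe and 0.0807 for Elovl5, and limma called 838 of all probes higher and 800 lower. Day 2 set 1 NZO array against 2 B6 arrays, which leaves 1 residual degree of freedom, so that a missed call there says nothing about stability. With slide as a fixed block, the values of the same 4 probes were 1.05, 1.31, -0.16 and -0.36, and none of the members was called. Only 1 slide held both strains, so these values rest on NZO sample 003 against B6 samples 010 and 015. A missed call there likewise says nothing about stability. With slide as a random block Elovl1 and Elovl5 were called.

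**Figure D3:**
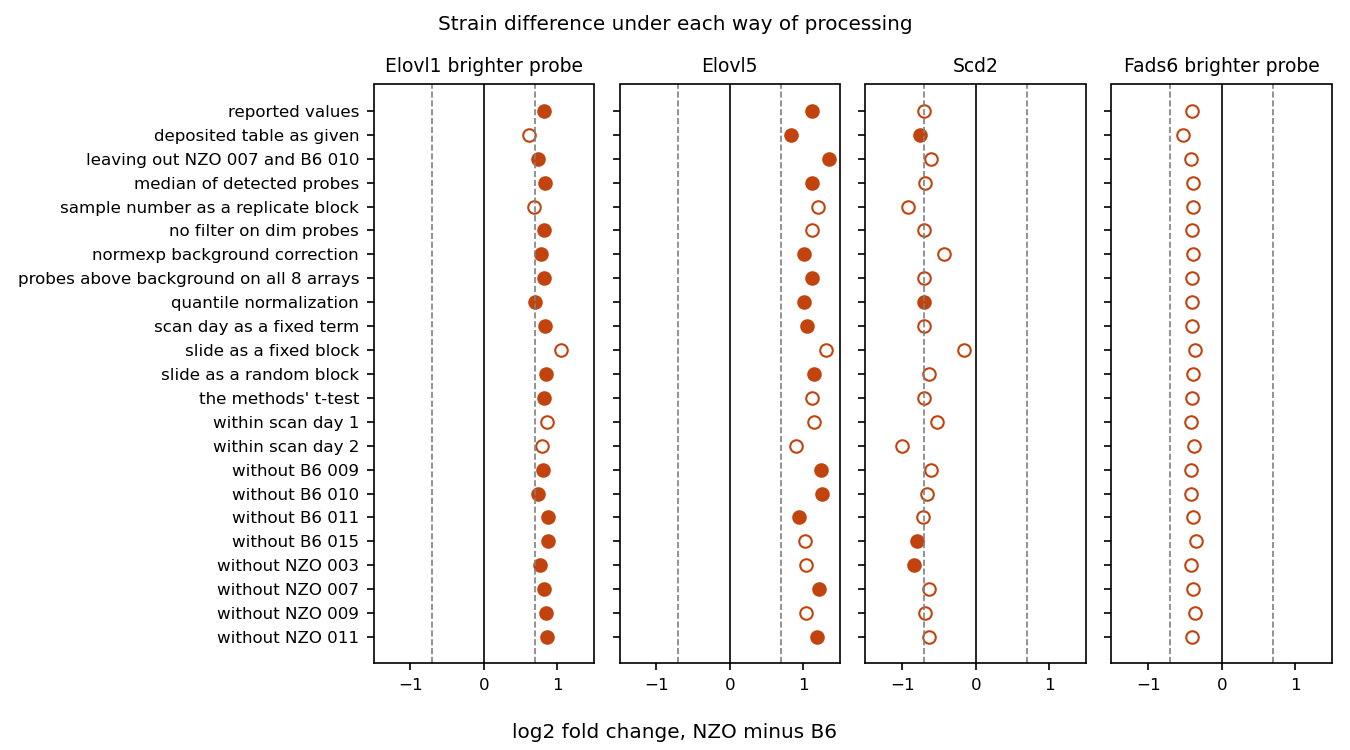
Log2 fold change, NZO minus B6, of 4 probes (columns) under each way of processing (rows), with filled points where the adjusted p and the fold limit were passed. Elovl1 and Elovl5 lie to the right of 0 and Scd2 and Fads6 to the left in each row, while Scd2 ranges from -1.01 to -0.16.

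Samples of a strain differed from each other in a shared way at several members. In NZO, samples 003 and 009 were above the strain mean and samples 007 and 011 below it at Elovl5, Elovl2, Fads1 and both Fads2 probes. For Fads1 these deviations were 0.43 and 0.24 in samples 003 and 009 and -0.50 and -0.18 in samples 007 and 011. The pattern was not particular to the members. Ehhadh, Lpcat3 and Acsl1, from the lists described below, had it too, whereas others such as Elovl6 did not. At Elovl1 and Fads6 the deviations in NZO stayed between -0.16 and 0.18, except for the dimmer Fads6 probe (-0.32 to 0.34). In B6, sample 011 was the lowest at Elovl5 (-0.52) and Fads1 (-0.37), and Elovl3 set the samples furthest apart, from -0.72 in sample 015 to 0.61 in sample 010. Single samples also stood apart at clock genes. Arntl, an activator of the clock, had its lowest level in B6 sample 015 (0.57, against 1.59 to 2.13 in the other B6 samples), and Nr1d1, a clock repressor, had its lowest level in NZO sample 011 (-2.66, against -0.16 to 0.78), the NZO sample with the highest Elovl3. Their part in the result was not tested, and the time of sampling is not given in the sources used here.

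**Figure D4:**
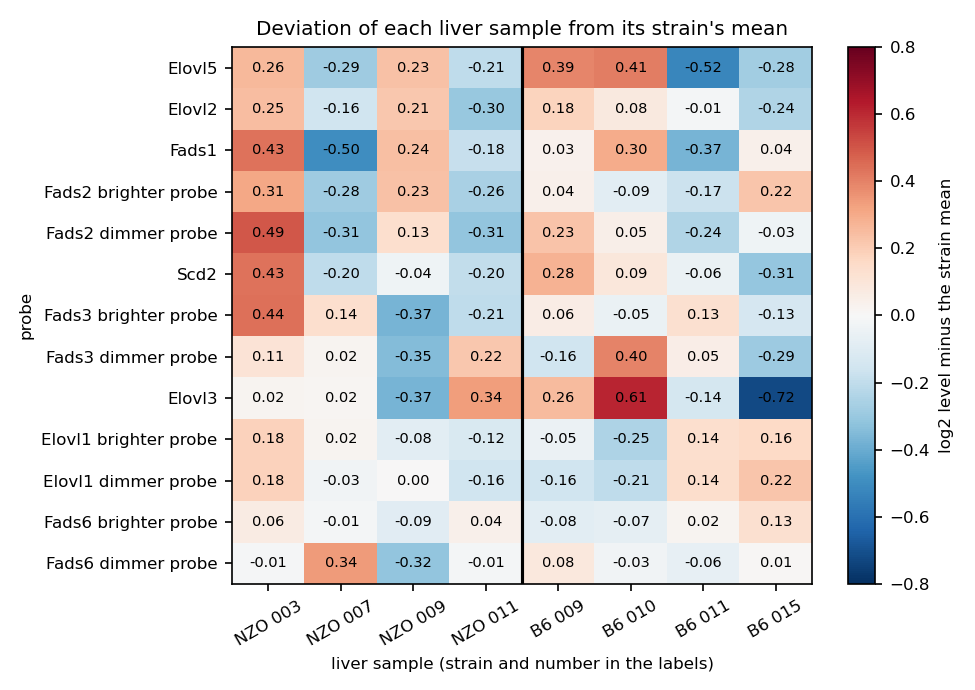
Deviation of each liver sample (columns) from the mean of its strain, in log2 units, at the 13 probes (rows); red is above and blue below the strain mean. NZO samples 003 and 009 are above and 007 and 011 below the mean in the top 5 rows, and Elovl3 shows the widest range in B6.

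For 3 members the genes whose deviations from the strain means were most alike over the 8 arrays were listed, as Pearson's r without a test. For Elovl3 these were Tfcp2l1 (0.94), Sdc2 (0.93), Epc1 (0.93), Sap130 (0.93) and Sertad3 (0.92). For the brighter Fads2 probe they were Impa2 (0.98), Iigp1 (0.96), Mfng (0.96), Cd82 (0.96) and Kxd1 (0.96). For Scd2 they were Dnase1l3 (0.98), Prim2 (0.97), Krt23 (0.97), Ccnjl (0.96) and Srf (0.96). With 8 arrays and 27639 probes to choose from, values of this size are a description of these arrays.

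The surrounding pathway was described from lists of other desaturases and elongases, further enzymes of the elongation cycle with their electron donors, handling of polyunsaturated acyl-CoA and phospholipids, peroxisomal shortening of chains, and regulators. Of 45 genes tested, each at its brightest probe, 1 was called higher and 1 lower in NZO, beside 4.42% and 5.01% of all 20156 genes. Their median log2 fold change was 0.04, and it was 0.03 over all genes. The gene higher was Hacd1, a dehydratase of the elongation cycle (0.75 ± 0.12, SE, limma adjusted p = 0.0046). The gene lower was Srebf1, the transcription factor that drives lipogenic genes (-0.79 ± 0.17, SE, limma adjusted p = 0.0159). Srebf1 read 0.49, 1.02, 0.70 and 0.96 in NZO and 1.33, 1.52, 1.56 and 1.94 in B6 in the order of samples above, without overlap. The Hacd1 call was lost without NZO sample 003 (0.69), and the Srebf1 call without B6 sample 009 (-0.67) or NZO sample 007 (-0.69), and without NZO sample 007 and B6 sample 010 together (-0.71, limma adjusted p = 0.0665).

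Among 5 other desaturases and elongases tested with limma, 0 were called and 2 had an unadjusted p under 0.05, beside 14.3% of all genes in the higher and 13.6% in the lower direction (Degs1 and Scd4, of which Scd4 was well above background on 1 of 4 NZO arrays, so that its fold is not given). Elovl6, which elongates palmitate, read 2.69, 3.91, 2.88 and 3.89 in NZO samples 007, 003, 009 and 011 and between 2.61 and 3.13 in B6. NZO samples 003 and 011 were above all B6 samples, and the log2 fold change was 0.56 (limma adjusted p = 0.277). Scd3, another stearoyl-CoA desaturase, had 0.01 and -0.12 at its brighter probes, and its dimmest probe read lower in NZO without a call (limma adjusted p = 0.089) and was well above background on 1 of 4 NZO arrays, so that its fold is not given. Degs1, which makes ceramide from dihydroceramide, had 0.55 (0.0159). In the elongation cycle and its electron donors, 1 of 9 genes was called. Cyb5r3, the reductase that passes electrons to cytochrome b5, had 0.55 (limma adjusted p = 0.0105), and Cyb5a, cytochrome b5 itself, had -0.40 (0.0262), both short of the fold limit. Of the 10 genes of acyl-CoA and phospholipid handling and the 9 peroxisomal genes, 0 were called by limma, and 2 and 1, respectively, had an unadjusted p under 0.05. The former ranged from -0.42 (Acsl3) to 0.51 (Acsl1). Of the 12 regulators, Srebf1 alone was called, with Srebf2 at 0.37 (limma adjusted p = 0.0404), the liver X receptor Nr1h3 at 0.10, Ppara at 0.06 and Mlxipl at -0.18.

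**Figure D5:**
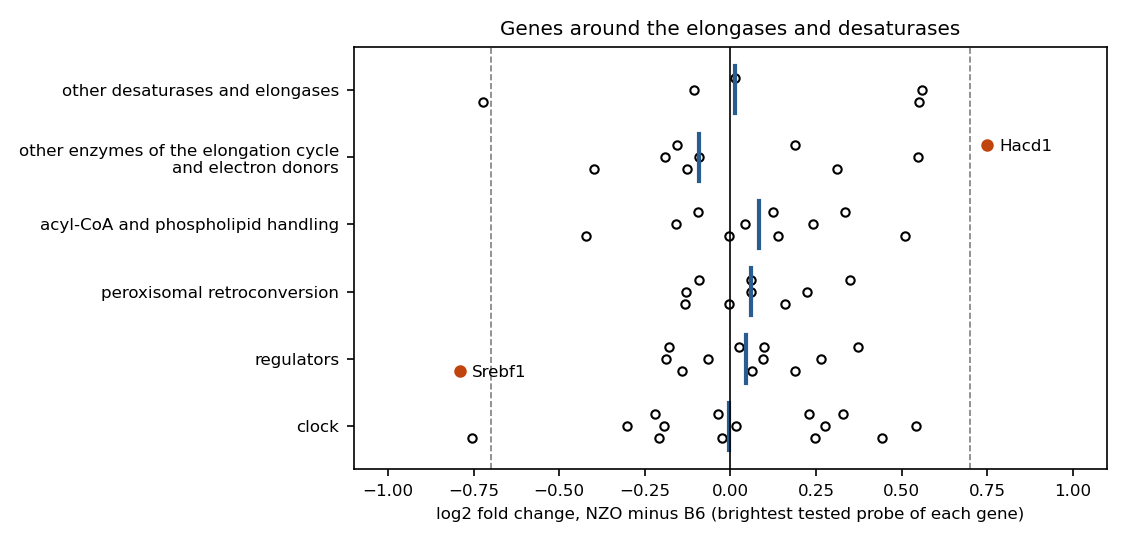
Log2 fold change, NZO minus B6, of each tested gene of 6 lists (rows); filled points were called and named, open points were not, blue bars are list medians and dashed lines mark 0.7. The lowest open point of the top row, Scd4, was at background on most NZO arrays. Hacd1 lies right of the dashed line at 0.75 and Srebf1 left of it at -0.79, and the medians lie near 0.

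Clock genes and sex-biased liver genes were listed because Elovl3 follows both in mouse liver. Of 14 clock genes tested with limma, 0 were called and 0 had an unadjusted p under 0.05, with Nr1d1 at -0.76 (limma adjusted p = 0.579) and Arntl at 0.33 (0.571). These counts take each gene at its brightest probe. The dimmer probe of the male-biased Mup20 was called at -1.85 (limma adjusted p = 0.000398) where the brighter had -0.18. Of 10 male-biased genes tested, Cyp4a12a (1.30) and Cyp4a12b (1.32), which share most of their sequence, were called higher and 0 lower. Of 11 female-biased genes tested, 6 were called higher and 2 lower. Among all 20156 genes tested, 4.42% were called higher and 5.01% lower. Cyp3a41b had 5.51, Cyp2a4 -1.29 and Prom1 -0.99, and 5 of the 6 higher genes were not well above background on any B6 array, so that their folds are not given.

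Markers of cell types were read beside these results. In bulk tissue, fewer cells of a type and less RNA per cell cannot be told apart. Of 5 hepatocyte markers tested with limma, 0 were called and 0 had an unadjusted p under 0.05. Their summed signal, in multiples of the 75th percentile, was between 3789 and 3917 in NZO and between 3002 and 3766 in B6, higher in NZO without overlap. Alb, whose probe was the brightest of the 5 and weighed most in the sum, had 0.27 (limma adjusted p = 0.206). Ttr had 0.15, Apoa1 0.0039, Cps1 -0.016 and Tat -0.31, so the markers did not move one way. The part of the higher summed signal in the differences of the members was not tested. The red cell markers Hba-a1 (1.00 ± 0.22, SE, limma adjusted p = 0.0183) and Alas2 (0.90 ± 0.13, 0.0023) were called higher in NZO, 2 of the 4 of the list, the same direction as Elovl1 and Elovl5. The summed signal of the 4 red cell markers, in multiples of the 75th percentile, was 366, 318, 470 and 293 in NZO samples 007, 003, 009 and 011 and 208, 165, 155 and 197 in B6 samples 011, 010, 015 and 009, and most of it was Hba-a1. Sox9 among 3 cholangiocyte markers tested (-1.46) was called lower in NZO, the direction of Scd2 and Fads6. Krt19 had -0.65 without a call (limma adjusted p = 0.0798), and Krt7, also not called, was well above background on 2 of 4 NZO arrays, so that its fold is not given. Of 5 leukocyte markers 1 was called, Itgax, lower in NZO; it was well above background on 2 of 4 NZO arrays, so that its fold is not given. The leukocyte markers did not move one way: Ptprc was at -0.52 and Cd68 at -0.42 (limma adjusted p = 0.0445), Lyz2 at 0.41 and Cd3e at 0.33. Their summed signal was 13.1 ± 3.81 in NZO and 12.1 ± 1.04 in B6 (SD, n = 4). The higher NZO mean rested on sample 007 (18.8), in which Cd3e read highest, whereas samples 003, 009 and 011 were at 10.8, 11.4 and 11.3, below the B6 mean. The summed signal of the cholangiocyte markers was 0.596 ± 0.119 in NZO and 1.21 ± 0.159 in B6 (SD, n = 4). The part of these cells in the differences of the members was not tested. Of the 6 adipocyte markers, Adipoq, Plin1 and Lep were not well above background on all arrays of either strain and the other three were not called. The summed signal of those 3 was 606, 565, 644 and 575 in NZO samples 007, 003, 009 and 011 and 413, 409, 426 and 481 in B6 samples 011, 010, 015 and 009, with no overlap and in the direction of Elovl1 and Elovl5. Nearly all of it was Car3, a carbonic anhydrase that liver also expresses (0.47, limma adjusted p = 0.0133, short of the fold limit), while Cidec had 0.42 and Fabp4 -0.30, neither called. The part of these genes in the differences of the members was not tested. No gene was called among the markers of exocrine pancreas (2 of 6 tested) or skeletal muscle (3 of 4). Nor was one called among those of endothelial cells (4 of 4) and stellate cells (4 of 4). The spread of the muscle markers between samples is given above. At an unadjusted p under 0.05 limma gave 0, 0, 3 and 1 genes of these lists, in this order. The same limit was passed by 4 of 5 leukocyte, 3 of 4 red cell, 3 of 3 cholangiocyte and 1 of 3 adipocyte markers. Among all genes tested, 14.3% passed it higher and 13.6% lower in NZO. All 4 stellate markers had negative log2 fold changes, the direction of Scd2 and Fads6, from -0.21 (Des) to -0.50 (Col1a1), and their summed signal was 49.6, 52.5, 41.9 and 44.6 in NZO samples 007, 003, 009 and 011 and 65.6, 60.3, 57.0 and 60.5 in B6 samples 011, 010, 015 and 009, with no overlap. The summed signal of the endothelial markers was higher in NZO without overlap, at 35.3 ± 1.48 against 26.7 ± 1.79 (SD, n = 4), although Stab2 alone of the 4 had a positive log2 fold change (0.48), and its dimmer probes gave -0.93 and -0.44. The part of stellate and endothelial cells in the differences of the members was likewise not tested.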

How the data were processed

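Liver RNA of 4 NZO and 4 B6 samples was measured on 1-colour Agilent arrays. The authors deposited scanner intensity values for each array, made by Agilent Feature Extraction (11.0.1.1 in the file headers, 9.1 in the labels), and an intensity table, named as normalised, whose values equalled the raw median intensities at 59305 of 59305 spots on each array (tolerance 0.01). The processed signal was used, from which Feature Extraction had subtracted the background. Spots of controls and those marked as outliers (96 to 137 on an array) were dropped. The log2 signal was set against the array's own 75th percentile, and replicate spots of a probe were averaged. No spot was saturated. Between 50.4% and 60.1% of spots were well above background, and the number of arrays limits the precision.

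A probe was tested if every array of NZO, of B6 or of both detected it above background (27639 of 55681 probes). The test used limma 3.58.1 in R 4.3.3 (data.table version 1.17.8), without a block, on these 8 arrays. Related members and probes of 1 gene were compared by two-sided exact permutation over 70 assignments of samples, adjusted within 6 and 4 comparisons. Genes of lists were represented by their brightest tested probe and matched by name or by accession in RefSeq's gene table. Named were all members, called genes of the lists, Scd1, Elovl6, Srebf1, Nr1d1, Arntl and, for Elovl3, Fads2 and Scd2, the 5 genes of the most similar pattern; other genes of the lists were named after their values were seen. The members and lists were chosen with earlier results of these data known. Probe positions are those of the array files (mm9); annotation of exons on that build was not used here. Alternatives were normexp (offset 50), quantile or median scaling, the deposited table, other filters, slide and scan day terms, the sample number as a block, a Welch test with the thresholds of the methods, and leaving out each sample; leaving out NZO sample 007 with B6 sample 010 was chosen after seeing the data. The limma procedure was tested on simulated data. Tables and plots were made with Python 3.11.15, pandas 2.3.3, numpy 2.4.6 and matplotlib 3.10.9. A value of 1 further gene of the lists is not reported here.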

Additional observations from a re-analysis of the deposited data

How the results depend on the processing

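The deposited table, which holds raw medians without scaling, moved the median of all probes to -0.15. The replicate block kept only the samples numbered 009 and 011 in both strains. With slide fixed the strain term rested on NZO sample 003 against B6 samples 010 and 015, and each scan day held part of the arrays. Lower counts in these fits therefore do not show that a difference was unstable. Member probes called higher in NZO fell from 3 to 1 with that table (Elovl5) and to 0 with slide as a fixed block, the sample number as a replicate block, and within scan day 1 and within scan day 2; member probes called lower rose from 0 to 1 (Scd2) with the deposited table and quantile normalisation and to 2 with no fold limit. Leaving out 1 sample gave 2 to 3 member probes higher and 0 to 1 lower, 1055 to 1219 probes higher and 1221 to 1464 lower, and 0 to 1 pathway genes in either direction. All probes called higher numbered 575 with the deposited table, 72 with the replicate block, 615 with normexp, 497 with slide fixed, 277 within scan day 2 and 1873 with no fold limit; those lower numbered 134 with the replicate block, 583 with normexp, 963 with probes above background on all 8 arrays, 890 with the methods' t-test, 800 and 554 within scan days 1 and 2, and 2057 was reached with no fold limit. At the thresholds of the methods that t-test called 1291 probes higher and 1609 lower; after Benjamini-Hochberg adjustment it called 831 and 890. Pathway genes higher numbered 0 with the deposited table, the replicate block, normexp, slide fixed and within scan day 2, and 4 with no fold limit; pathway genes lower numbered 0 with the replicate block, slide fixed, within either scan day and without NZO sample 007 and B6 sample 010, and 2 with scan day as a term, with unadjusted p and with no fold limit. The sample numbers shared by the strains (009 and 011) did not pair the samples (correlations of deviations -0.26 and -0.0041).

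Uncalled members and genes turned sign as follows. With the deposited table, Elovl2 was -0.10 and Elovl3 -0.22. Elovl3 was -0.041 with the replicate block, -0.047 with normexp and -0.069 with quantile normalisation. Within scan day 2, Elovl2 was -0.086, Elovl3 -0.0047, Fads1 -0.047, the dimmer Fads6 probe 0.015, Elovl6 -0.0036, Nr1d1 0.44 and Arntl -0.19. Scd1 was 0.10 with the replicate block, 0.34 with slide fixed, 0.10 within scan day 1 and 0.22 without NZO sample 007 and B6 sample 010. Leaving out 1 sample gave ranges of -0.21 to 0.24 for Elovl3, -0.31 to 0.16 for Scd1, -1.18 to 0.0077 for Nr1d1 and -0.016 to 0.51 for Arntl. For the differences between related members and between probes it gave -0.18 to 0.16 for Fads2 minus Fads3 and -0.017 to 0.041 for the Elovl1 probes. It gave -0.16 to 0.034 for the Fads6 probes, -0.11 to 0.039 for the Fads2 probes and -0.051 to 0.24 for the Fads3 probes. With normexp the Fads6 probes differed by -0.28 (-0.083 without it) and the Elovl1 probes by 0.073 (0.0044 without it). Scd2 minus Scd1 was then -0.28 (-0.59 without it) and Fads2 minus Fads3 0.054 (0.02 without it). These comparisons were rerun only with normexp, the mean over probes (pairs) and leaving out samples. Of them, 0 of 6 pairs and 0 of 4 passed the adjusted p, which a single pair cannot reach with this number of samples. Elovl1, Elovl5, Scd2, both Fads2 and both Fads3 probes and the brighter Fads6 probe kept their direction in all alternatives run. Without the filter on dim probes Elovl5 kept its fold but had a limma adjusted p of 0.0528, and with the methods' t-test 0.0815. The cause of these changes was not tested.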
